A study of Mus musculus with 6 samples.

Results

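The 50 genes described here carry out mitosis: the kinases and cyclins that start it, the checkpoint, kinetochore and spindle proteins that attach and move chromosomes, the condensins that compact them, and the proteins that divide the cell. They were taken by mouse gene symbol from a list of mitotic genes, out of 52550 Ensembl genes in the tables. All 50 symbols were found. RNA was sequenced from isolated colon epithelial cells of Apc Min/+ males, mice that carry a truncated copy of the tumour suppressor Apc and form intestinal adenomas. Animals aged 5 to 6 weeks were gavaged every other day with atorvastatin, a statin that inhibits cholesterol synthesis, at 20 mg/kg, or with the vehicle, 2% Tween 80, as control. Each group had 3 libraries, both groups carried the Min allele, and the study asked how the drug changes expression in this epithelium. The labels do not say whether the libraries came from separate mice or whether adenomas were part of the cells, so p-values measure the spread between these libraries, which may be technical.

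Colon epithelium renews itself from the crypts, where stem and transit-amplifying cells divide, while the differentiated cells of the upper crypt and surface have left the cell cycle. Cyclin B with CDK1 drives entry into mitosis. Kinetochores then attach chromosomes to the spindle, and the checkpoint holds the anaphase-promoting complex (APC/C) inactive until all are attached. Once active, the APC/C marks securin and cyclin B for destruction, separase cuts the cohesin that holds sister chromatids together, and the central spindle directs cytokinesis. Messenger RNAs of many of these genes are made mainly in G2 and M phase, through promoters bound by the MuvB complex with B-MYB and FOXM1 at a motif called CHR (cell cycle genes homology region) and by NF-Y at CCAAT boxes.

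Most promoters of the list hold these motifs, which the choice of genes did not use. RefSeq promoter windows on GRCm38.p6, 250 bases before to 50 after the annotated start, were held for 41 of the 50 genes, and Aurkb, Ccna2, Foxm1, Incenp, Kif20a, Smc4, Spc24, Stmn1 and Tpx2 had no entry. The 6 stretches below, 160 bases each, are shown because each holds a CHR in a gene described further on. They are written 5′ to 3′ on the gene's strand, trimmed to bases outside annotated exons, and capitals mark the CHR (TTTGAA, or TTCAAA for the reverse strand) and the CCAAT box (CCAAT, or ATTGG for the reverse strand).
Mki67: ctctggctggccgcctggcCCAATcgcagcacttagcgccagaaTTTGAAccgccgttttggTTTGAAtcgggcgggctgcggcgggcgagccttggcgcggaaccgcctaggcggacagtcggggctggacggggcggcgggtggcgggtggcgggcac
Top2a: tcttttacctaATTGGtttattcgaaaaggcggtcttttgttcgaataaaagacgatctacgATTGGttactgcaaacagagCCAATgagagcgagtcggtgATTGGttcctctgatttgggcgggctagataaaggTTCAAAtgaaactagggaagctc
Ncapg: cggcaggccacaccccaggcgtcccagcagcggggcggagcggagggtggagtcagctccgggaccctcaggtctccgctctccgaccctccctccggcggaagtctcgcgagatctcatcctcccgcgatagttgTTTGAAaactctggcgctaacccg
Kif11: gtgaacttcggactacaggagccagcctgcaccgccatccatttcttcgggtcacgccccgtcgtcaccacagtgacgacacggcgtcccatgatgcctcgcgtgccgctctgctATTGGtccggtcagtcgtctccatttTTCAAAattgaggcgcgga
Cdk1: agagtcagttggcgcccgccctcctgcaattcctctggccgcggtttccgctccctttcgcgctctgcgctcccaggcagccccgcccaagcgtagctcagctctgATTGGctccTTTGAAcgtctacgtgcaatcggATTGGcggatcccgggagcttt
Cdc20: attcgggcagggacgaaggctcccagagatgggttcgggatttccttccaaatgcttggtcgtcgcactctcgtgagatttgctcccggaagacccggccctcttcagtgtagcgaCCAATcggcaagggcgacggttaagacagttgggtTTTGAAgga
The stretches lie at chr7:135716380-135716539, minus strand (Mki67), chr11:99024190-99024349, minus strand (Top2a) and chr5:45669759-45669918, plus strand (Ncapg). Those of the others lie at chr19:37376222-37376381, plus strand (Kif11), chr10:69352939-69353098, minus strand (Cdk1) and chr4:118437353-118437512, minus strand (Cdc20). In Kif11, Cdk1 and Cdc20 a CCAAT box stands upstream of a CHR, its first base at -45, -80 and -53 from the start against -19, -71 and -18 for that CHR. Cdk1 also holds a CHR at -15 and CCAAT boxes at -208 and -48. Cdc20 also holds a CCAAT box at -8, downstream of its CHR. Mki67 holds CHR matches at -116 and -98, and Top2a holds CHR matches at -179 and -23 and 6 CCAAT boxes in its 300-base window, of which the printed stretch shows 4.

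A CHR was found in 30 of the 41 promoters (73.2%), against 12.1% of the 8396 promoters of tested genes and 18.1% of all 27025 promoters of the same length. A CCAAT box was found in 32 (78.0%, against 39.3% of tested and 37.9% of all), and both motifs in 27 (65.9%, against 5.12% and 7.12%). The CHR began within 60 bases before to 50 after the start in 27 members (65.9%, against 3.3% and 5.46%), and 21 members held at least 2 CCAAT boxes (51.2%, against 15.7% and 12.2%). An E2F motif (TTCCCGC) was found in 2 members, Cenph and Ncapg (4.88%, against 8.66% and 4.66%). All searches covered both strands, and none of the motifs contains another. In a list of 44 DNA replication genes, of which 35 had a promoter, the CHR was found in 4 (11.4%) and the E2F motif in 15 (42.9%). A match is a run of letters and not a measured binding site.

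**Figure D1:**
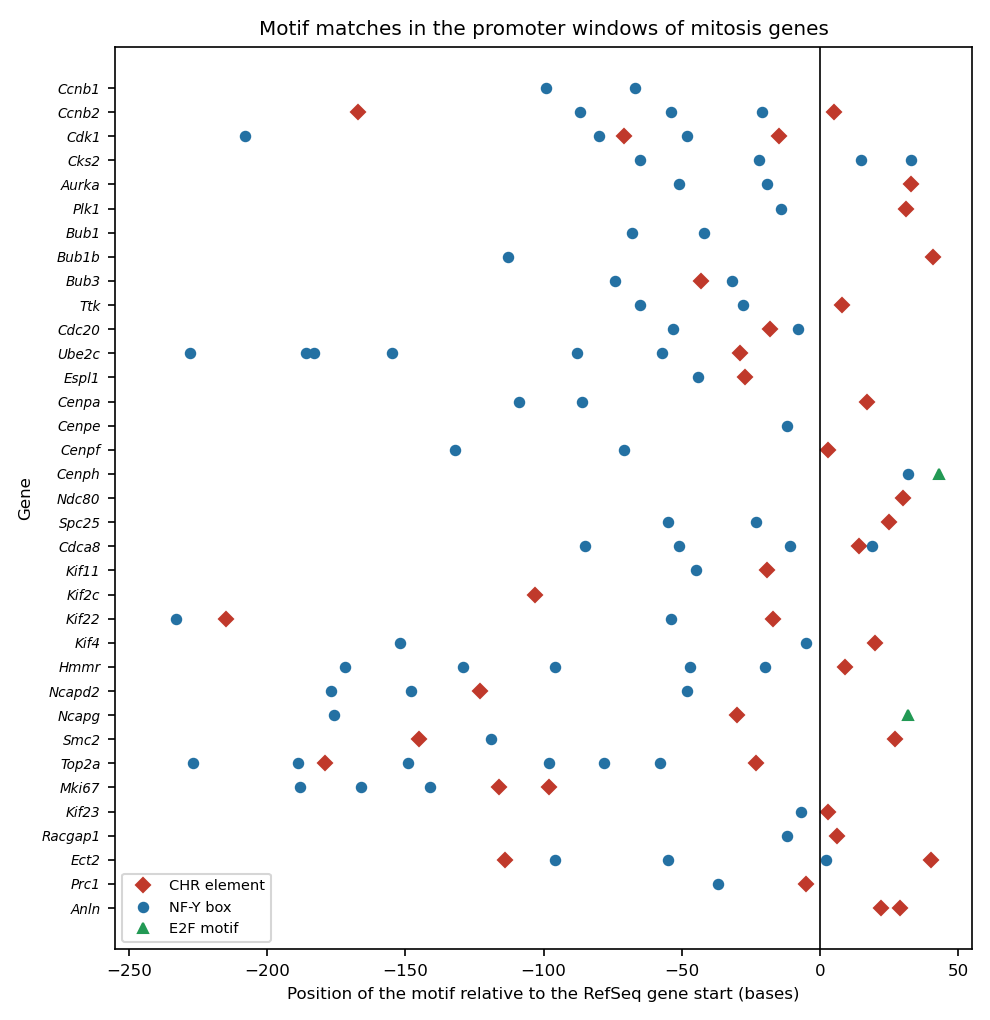
Position of each motif match along the promoters of the mitosis genes, in bases from the annotated start (x axis), with 1 row per gene that holds a match, in order of role. NF-Y box stands for the CCAAT box, and CHR matches lie mostly close to the start, with CCAAT boxes mostly, but not always, upstream of them.

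With atorvastatin, 49 of the 50 mitosis genes had a higher fitted level than with vehicle, where 57.3% of the 11644 tested genes did, but only 1 of them passed the test. Levels are FPKM (fragments scaled for gene length and for the mapped total of the library), and differences are log2 fold changes of FPKM + 1 with their standard error. All 50 genes passed the filter, which asked for 1 FPKM or more in 3 or more libraries. Their median log2 fold change was 0.37, against 0.02 over all tested genes, and the ratio of group means ran from 0.884 for Pttg1 to 1.55 for Ttk and Cenph, with a median of 1.36. The call at an adjusted p under 0.05 (limma, Benjamini-Hochberg over all tested genes) was reached by Stmn1 alone, higher with atorvastatin, where 0.155% of all tested genes were called higher and 0.249% lower. No member was called lower. At an unadjusted p under 0.05, 34 members were higher, against 7.75% of tested genes, and 1, Pttg1, was lower, against 4.27%. In these bulk samples a larger share of dividing cells and more RNA per dividing cell cannot be told apart.

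**Figure D2:**
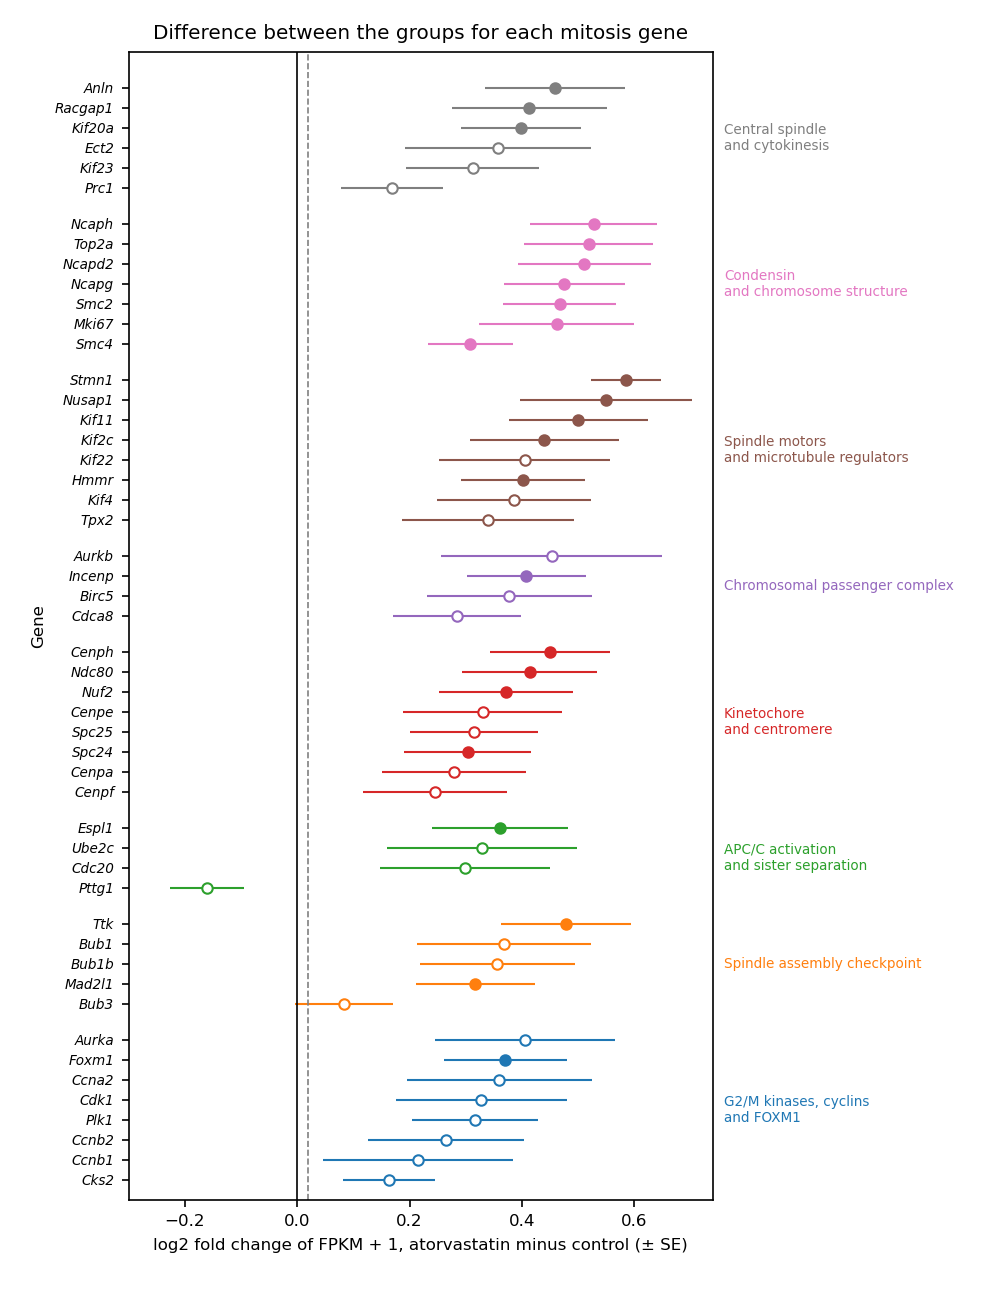
Log2 fold change of FPKM + 1, atorvastatin against control, of each mitosis gene (x axis), with its standard error as the bar, grouped by role. Filled points are genes whose groups did not overlap, the dashed line is the median of all tested genes (0.02), and 49 of the 50 points lie above 0.

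Within each group the libraries differed in a similar way across most of these genes. The median member stood at 0.865, 0.959 and 1.176 times its own control mean in control replicates 1, 2 and 3, and at 1.318, 1.574 and 1.204 times in atorvastatin replicates 1, 2 and 3. Summed over the 50 genes, the level was 371, 398 and 480 FPKM in the vehicle libraries and 534, 621 and 489 FPKM in the atorvastatin libraries. Control replicate 3 and atorvastatin replicate 3 thus lay next to each other, with no overlap of the sums. Atorvastatin replicate 2 was the highest library in 49 members (24.2% of all tested genes) and control replicate 1 the lowest in 41 (16.5% of all). Control replicate 3 was at or above atorvastatin replicate 3 in 25 members, beside 49.5% of all tested genes.

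All 3 atorvastatin libraries lay above all 3 control libraries in 24 members (48.0%), against 12.0% of tested genes. The opposite order was found in no member, against 6.05% of tested genes. Without control replicate 3 the count of members was 46 (18.8% of all tested genes), and without atorvastatin replicate 3 it was 41 (19.7%). The spread within the groups was wider than over all tested genes: the highest control library was a median of 1.38 times the lowest, against 1.16 over all tested genes, and 1.3 against 1.13 with atorvastatin. The median log2 fold change ran from 0.28 without atorvastatin replicate 2 to 0.49 without control replicate 3.

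**Figure D3:**
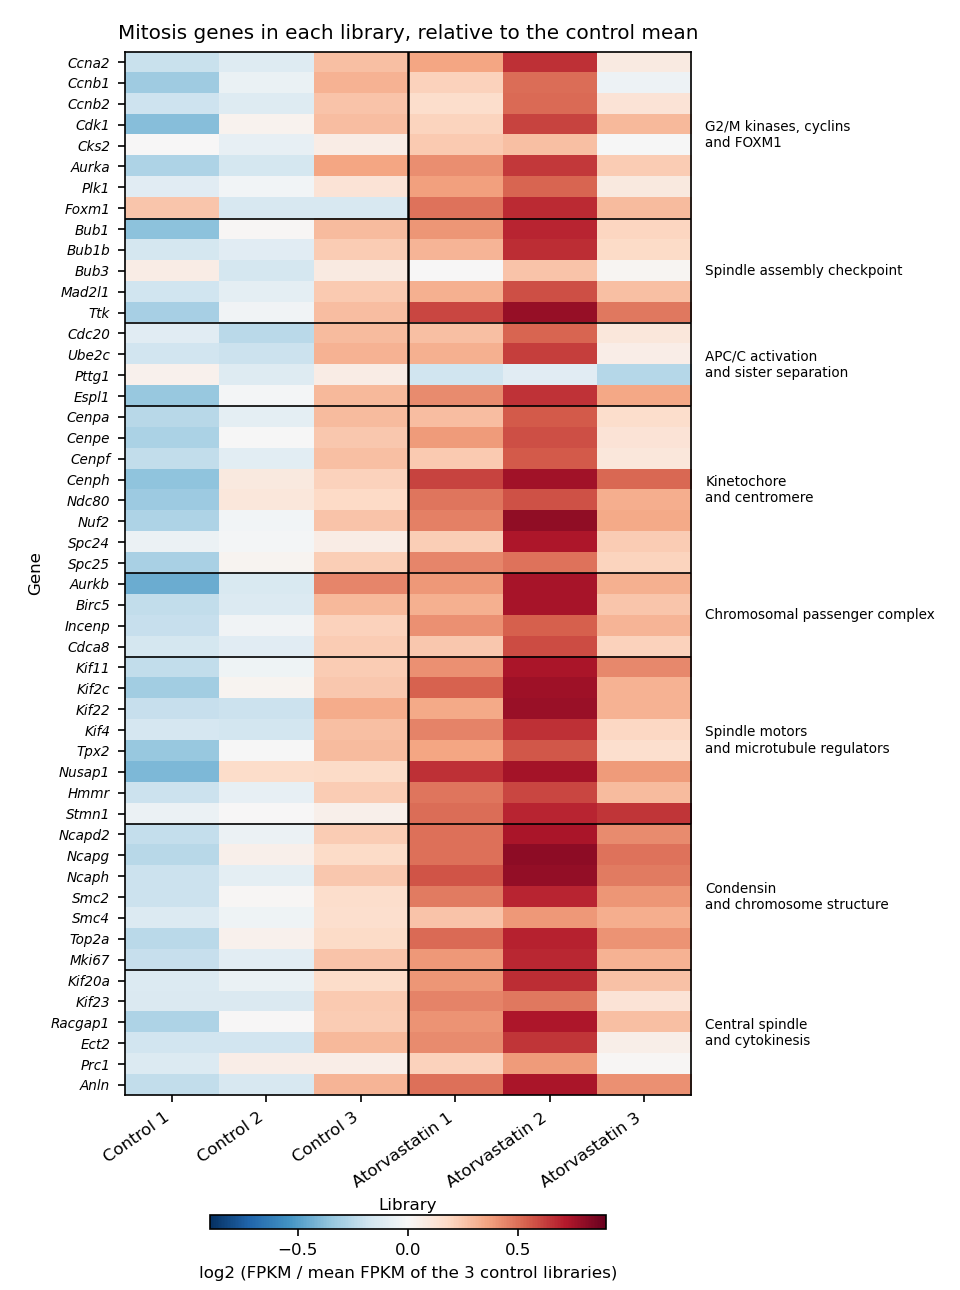
Level of each mitosis gene in each library as log2 of its FPKM over the mean of the 3 control libraries (colour), with genes in rows by role and libraries in columns. The column of atorvastatin replicate 2 is the reddest in 49 of 50 rows, and that of control replicate 3 is close to that of atorvastatin replicate 3 in many rows.

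Among the kinases and cyclins that start mitosis, none of 8 passed the test and all 8 had a positive log2 fold change (median 0.32). Only 1 did not overlap between groups (12.5%, near the 12.0% of all tested genes). Ccnb1, which encodes cyclin B1, the partner that activates CDK1, was at 5.29, 6.34 and 8.22 FPKM in the vehicle libraries and 7.65, 9.37 and 6.42 FPKM in the atorvastatin libraries, a log2 fold change of 0.21 ± 0.17 (adjusted p = 0.699). Its highest control library stood above 2 of the 3 atorvastatin libraries. Cdk1, the kinase itself, was at 3.71, 4.94 and 5.88 against 5.57, 7.37 and 5.93 FPKM (0.33 ± 0.15, adjusted p = 0.458), with control replicate 3 between the atorvastatin libraries. Aurka, a centrosome kinase that acts in spindle assembly, was at 5.96, 6.45 and 9.23 against 9.65, 11.2 and 8.46 FPKM (0.41 ± 0.16, adjusted p = 0.385). Plk1, a kinase of mitotic entry and spindle assembly, was at 22.2, 23.4 and 25.9 against 30.8, 34.3 and 25.3 FPKM (0.32 ± 0.11, adjusted p = 0.331). In both, atorvastatin replicate 3 lay below control replicate 3 and the other atorvastatin libraries were above all controls. Cks2, a small CDK-binding protein and the most abundant member, had the lowest log2 fold change of the 8, at 35.8, 33.9 and 37.4 against 42.0, 43.0 and 35.6 FPKM (0.16 ± 0.08, adjusted p = 0.496).

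Foxm1, the transcription factor of the G2 and M programme, was at 3.02, 2.30 and 2.30 FPKM in the vehicle libraries and 3.57, 4.05 and 3.10 FPKM in the atorvastatin libraries (0.37 ± 0.11, adjusted p = 0.243). It was the 1 gene of the 8 whose groups did not overlap, by the narrow gap between 3.02 and 3.10 FPKM. Unlike most members it was highest among the controls in replicate 1. The annotated span of Foxm1 overlaps those of 2 other protein-coding genes. Shared exons were not examined and the strand setting is not stated, so whether its level holds their reads is unknown. The remaining members of the group, Ccna2 (cyclin A2) and Ccnb2 (cyclin B2), overlapped between groups, with log2 fold changes of 0.36 ± 0.17 and 0.26 ± 0.14.

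Of the 5 spindle assembly checkpoint genes none passed the test, all were positive (median 0.36), and 2 did not overlap (40.0%, against 12.0% of all tested genes). Ttk, which encodes the checkpoint kinase MPS1, had the largest fold of the 5, at 1.98, 2.38 and 2.95 FPKM in the vehicle libraries and 3.70, 4.2 and 3.39 FPKM in the atorvastatin libraries (0.48 ± 0.12, adjusted p = 0.164). Mad2l1, whose product MAD2 binds and inhibits CDC20, was at 2.92, 3.11 and 3.89 against 4.12, 4.95 and 3.99 FPKM (0.32 ± 0.11, adjusted p = 0.300). The groups did not overlap in these 2 genes, although control replicate 3 and atorvastatin replicate 3 of Mad2l1 nearly met. Bub1, a kinase at unattached kinetochores, was at 3.22, 4.2 and 5.06 against 5.48, 6.69 and 4.75 FPKM (0.37 ± 0.15, adjusted p = 0.411), with overlap through replicate 3. Bub3, the partner of BUB1 and BUBR1, differed least, at 6.32, 5.39 and 6.37 against 6.03, 7.21 and 6.09 FPKM (0.08 ± 0.09, adjusted p = 0.780). Bub1b, which encodes BUBR1, overlapped between groups as well, with 0.36 ± 0.14.

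The APC/C and sister separation genes held the list's 1 negative value. Pttg1, which encodes securin, the inhibitor of separase, was at 10.5, 9.44 and 10.7 FPKM in the vehicle libraries and 9.02, 9.51 and 8.56 FPKM in the atorvastatin libraries (-0.16 ± 0.07, adjusted p = 0.399). It lies on chromosome 11, 43420250 to 43426251, minus strand (ENSMUSG00000020415), and control replicate 2 lay between its atorvastatin libraries. Its log2 fold change was negative in all 17 alternatives, from -0.21 to -0.13 with a library left out. Espl1, which encodes separase, was at 1.86, 2.33 and 2.89 against 3.17, 3.71 and 3.00 FPKM (0.36 ± 0.12, adjusted p = 0.302), without overlap. Securin and its target separase thus had opposite signs, and neither passed the test. Cdc20, the activator of the APC/C, and Ube2c, its ubiquitin-conjugating enzyme, had log2 fold changes of 0.30 ± 0.15 and 0.33 ± 0.17 and overlapped between groups.

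Of the 8 kinetochore and centromere genes none passed the test, all were positive (median 0.32), and 4 did not overlap (against 12.0% of all tested genes). Cenph, a member of the inner kinetochore network, was at 1.5, 2.05 and 2.23 FPKM in the vehicle libraries and 2.93, 3.26 and 2.75 FPKM in the atorvastatin libraries (0.45 ± 0.11, adjusted p = 0.162). Ndc80, the subunit of the NDC80 complex that binds microtubules, was at 4.77, 6.4 and 6.76 against 8.33, 8.89 and 7.49 FPKM (0.41 ± 0.12, adjusted p = 0.234). In both, every atorvastatin library was above every control library. Of the other NDC80 complex subunits, Nuf2 (0.37 ± 0.12) and Spc24 (0.30 ± 0.11) did not overlap between groups and Spc25 (0.32 ± 0.11) did. Cenpf, a large protein of the outer kinetochore, differed least, at 2.96, 3.22 and 4.15 against 4.05, 5.06 and 3.70 FPKM (0.25 ± 0.13, adjusted p = 0.519). Cenpa, the histone H3 variant of centromeres, and Cenpe, a kinetochore motor, overlapped too.

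The chromosomal passenger complex corrects faulty attachments through Aurora B, and none of its 4 genes passed the test (median 0.39). Incenp, the scaffold, was at 12.6, 14.2 and 16.8 FPKM in the vehicle libraries and 19.3, 21.1 and 18.0 FPKM in the atorvastatin libraries (0.41 ± 0.11, adjusted p = 0.188). It was the 1 gene of the complex without overlap (25.0%, against 12.0% of all tested genes). Birc5, which encodes survivin, was at 3.66, 3.93 and 5.22 against 5.32, 7.15 and 5.07 FPKM (0.38 ± 0.15, adjusted p = 0.377), and Cdca8, which encodes borealin, at 3.21, 3.34 and 4.2 against 4.24, 5.37 and 4.13 FPKM (0.28 ± 0.11, adjusted p = 0.385). Both missed separation only where atorvastatin replicate 3 lay just under control replicate 3. Aurkb, the kinase, had 0.45 ± 0.20 and the widest standard error of the list.

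Spindle motors and microtubule regulators held the gene that passed. Stmn1 encodes stathmin, a small protein that binds free tubulin and promotes microtubule disassembly (ENSMUSG00000028832, chromosome 4, 134468320 to 134473843, plus strand). It was at 19.2, 19.9 and 20.5 FPKM in the vehicle libraries and 28.1, 31.9 and 31.1 FPKM in the atorvastatin libraries. The control libraries were nearly level, atorvastatin replicate 3 was close to replicate 2, and the groups were far apart. Stmn1 rose from 19.9 ± 0.678 to 30.3 ± 1.98 FPKM (SD, n = 3 each), and its log2 fold change was 0.58 ± 0.06 with an adjusted p of 0.021 by limma. The call held in 12 of 17 alternatives. It was lost with no filter on low values (adjusted p = 0.136), without control replicate 1 (0.0821) or 2 (0.0562), without atorvastatin replicate 3 (0.0779) and with replicate number as a block (0.111). The other 49 members had a median log2 fold change of 0.37 without it.

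Kif11, the motor that pushes spindle poles apart, was at 9.54, 10.8 and 13.0 FPKM in the vehicle libraries and 14.8, 18.5 and 15.0 FPKM in the atorvastatin libraries (0.50 ± 0.12, adjusted p = 0.173), without overlap. Tpx2, which activates Aurora A on spindle microtubules, had the lowest log2 fold change of these 8, at 6.49, 8.19 and 10.0 against 10.5, 12.1 and 9.15 FPKM (0.34 ± 0.15, adjusted p = 0.450). Its atorvastatin replicate 3 was below control replicate 3. All 8 were positive (median 0.42) and 5 did not overlap (62.5%, against 12.0% of all tested genes). Among these 5 were Nusap1, a spindle microtubule bundler with 0.55 ± 0.15, Hmmr with 0.40 ± 0.11 and the microtubule depolymerase Kif2c with 0.44 ± 0.13. The chromosome-bound kinesins Kif22 and Kif4 overlapped.

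**Figure D4:**
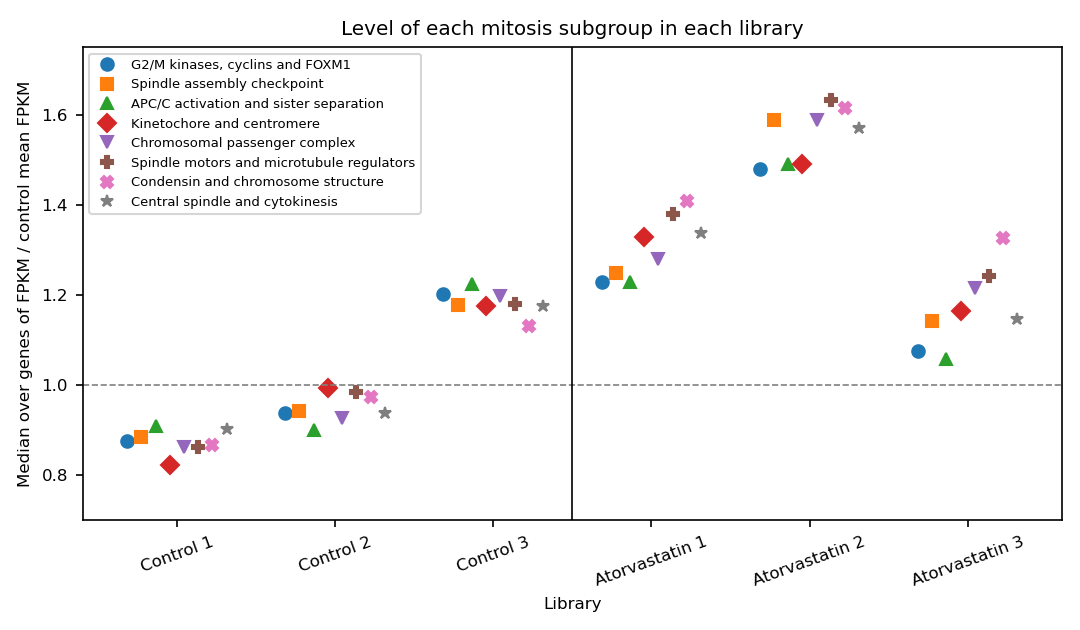
Median over the members of each of the 8 role groups of the level in each library divided by the gene's control mean (y axis), by library (x axis). Atorvastatin replicate 2 is highest in each group, and atorvastatin replicate 3 lies above control replicate 3 most clearly in the condensin group (1.325 against 1.13) and below it in the G2/M, checkpoint, APC/C, kinetochore and cytokinesis groups.

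Condensin and chromosome structure genes had the highest median of the 8 groups (0.48). In all 7 the groups did not overlap, against 12.0% of all tested genes, yet none passed the test. Ncaph, the kleisin subunit of condensin I (ENSMUSG00000034906, chromosome 2, 127103809 to 127133954, minus strand), was at 4.12, 4.43 and 5.55 FPKM in the vehicle libraries and 6.97, 8.13 and 6.5 FPKM in the atorvastatin libraries. Its log2 fold change was 0.53 ± 0.11 (adjusted p = 0.122), the smallest p of the list after Stmn1. Smc2, an ATPase core of condensin, was at 6.03, 6.97 and 7.71 against 9.53, 11.1 and 9.10 FPKM (0.47 ± 0.10, adjusted p = 0.127). Its partner Smc4 had the lowest log2 fold change of the 7, at 14.1, 14.9 and 17.0 against 18.3, 20.1 and 19.2 FPKM (0.31 ± 0.08, adjusted p = 0.170). Unlike in most members, atorvastatin replicate 3 of Smc4 was above replicate 1. The condensin I subunits Ncapd2 and Ncapg had 0.51 ± 0.12 and 0.48 ± 0.11.

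Top2a encodes topoisomerase II alpha, which untangles sister chromatids (ENSMUSG00000020914, chromosome 11, 98992943 to 99024189, minus strand), and was at 13.7, 16.7 and 18.3 FPKM in the vehicle libraries and 23.1, 26.2 and 21.5 FPKM in the atorvastatin libraries (0.52 ± 0.11, adjusted p = 0.138). Mki67 encodes Ki-67, the coat of mitotic chromosomes used as a marker of cycling cells (ENSMUSG00000031004, chromosome 7, 135689784 to 135716361, minus strand). It was at 24.3, 26.3 and 33.5 against 36.7, 44.9 and 34.9 FPKM (0.46 ± 0.14, adjusted p = 0.256). Neither overlapped, but for Mki67 control replicate 3 and atorvastatin replicate 3 differed by less than the controls did among themselves. Stretches of both promoters are printed above. Of the members with a promoter whose groups did not overlap, 13 of 18 (72.2%) held a CHR, as did 17 of the other 23 (73.9%). At least 2 CCAAT boxes were found in 5 of the 18 (27.8%) and 16 of the 23 (69.6%). The split into 18 and 23 depends on which libraries are kept, and the difference in motifs was not tested.

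Of the 6 central spindle and cytokinesis genes none passed the test, all were positive (median 0.38), and 3 did not overlap (against 12.0% of all tested genes). Kif20a, a kinesin of the central spindle, was at 6.44, 6.73 and 7.88 FPKM in the vehicle libraries and 9.26, 11.1 and 8.44 FPKM in the atorvastatin libraries (0.40 ± 0.11, adjusted p = 0.202). Anln, an actin-binding scaffold of the contractile ring, was at 3.14, 3.32 and 4.53 against 5.17, 6.09 and 4.87 FPKM (0.46 ± 0.12, adjusted p = 0.206). Both were separated between groups. Prc1, which bundles the antiparallel microtubules of the midzone, differed least, at 3.90, 4.43 and 4.42 against 4.91, 5.55 and 4.28 FPKM (0.17 ± 0.09, adjusted p = 0.532). Kif23 and Racgap1, the 2 proteins of centralspindlin, had 0.31 ± 0.12 and 0.41 ± 0.14, and Ect2, the RhoA exchange factor they recruit, had 0.36 ± 0.17. Of these 3, Racgap1 did not overlap.

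Other mitosis genes had a lower median. Of a wider list of 126 (G2/M regulators, MuvB subunits, checkpoint, APC/C, kinetochore, cohesin, condensin II, spindle and cytokinesis genes), 124 were tested. A positive value was found in 112 (median 0.22), against 57.3% of all tested genes. The groups did not overlap in the higher direction in 53 (42.7%, against 12.0%). Among these 53, the kinetochore gene Cenpk passed the filter only through the atorvastatin libraries, so its separation is not independent of the filter. Limma's adjusted test was passed by 0, where 0.155% of all tested genes were called higher and 0.249% lower. At an unadjusted p under 0.05, 58 were higher (46.8%, against 7.75%) and 0 lower (against 4.27%). Cenpk was among these 58 as well, with the same limit. Ncapg2 of condensin II had the smallest p, at 1.99, 2.67 and 2.81 FPKM in the vehicle libraries and 4.09, 4.58 and 4.04 FPKM in the atorvastatin libraries (0.59 ± 0.10, adjusted p = 0.072), followed by Haus1 of the augmin complex, at 3.22, 4.31 and 3.92 against 5.47, 6.49 and 5.82 FPKM (0.53 ± 0.10, adjusted p = 0.0901). In both, the groups did not overlap and atorvastatin replicate 3 was close to replicate 1. The smallest p in the lower direction belonged to Lin37, a MuvB subunit (-0.13 ± 0.10, adjusted p = 0.675), and Clasp1, a microtubule plus-end protein (-0.07 ± 0.07, adjusted p = 0.757). The median was 0.31 in the 16 further G2/M regulators, 0.27 in 25 tested kinetochore genes and 0.07 in 17 genes of the APC/C and its regulators.

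The 44 DNA replication genes, which act in S phase, also had mostly positive values. Their summed level was 217, 236 and 244 FPKM in the vehicle libraries and 295, 306 and 296 FPKM in the atorvastatin libraries, with atorvastatin replicate 3 close to the other 2 atorvastatin libraries. All 44 were tested, and 43 were positive (median 0.29), against 57.3% of all tested genes. The groups did not overlap in 36, all higher with atorvastatin (81.8%, against 12.0%). A total of 3 were called higher, against 0.155% of all tested genes: Mcm5 and Mcm6, subunits of the replicative helicase, and Cdc45, which activates it. Cdc45 was at 3.63, 3.55 and 4.09 FPKM in the vehicle libraries and 5.38, 5.48 and 5.40 FPKM in the atorvastatin libraries (0.43 ± 0.06, adjusted p = 0.0477). These calls depended on the settings: Mcm5 was called in 9 of 17 alternatives (adjusted p 0.0261 to 0.195), Cdc45 in 4 (0.0394 to 0.227) and Mcm6 in 2 (0.0422 to 0.231). The exception in sign was Orc1 of the origin recognition complex (-0.02 ± 0.11, adjusted p = 0.955). Control replicate 3 was at or above atorvastatin replicate 3 in 5 of the 44, beside 49.5% of all tested genes. Atorvastatin replicate 2 was the highest library in 19, beside 24.2% of all tested genes. Whether the mitosis and replication lists differ was not tested.

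**Figure D5:**
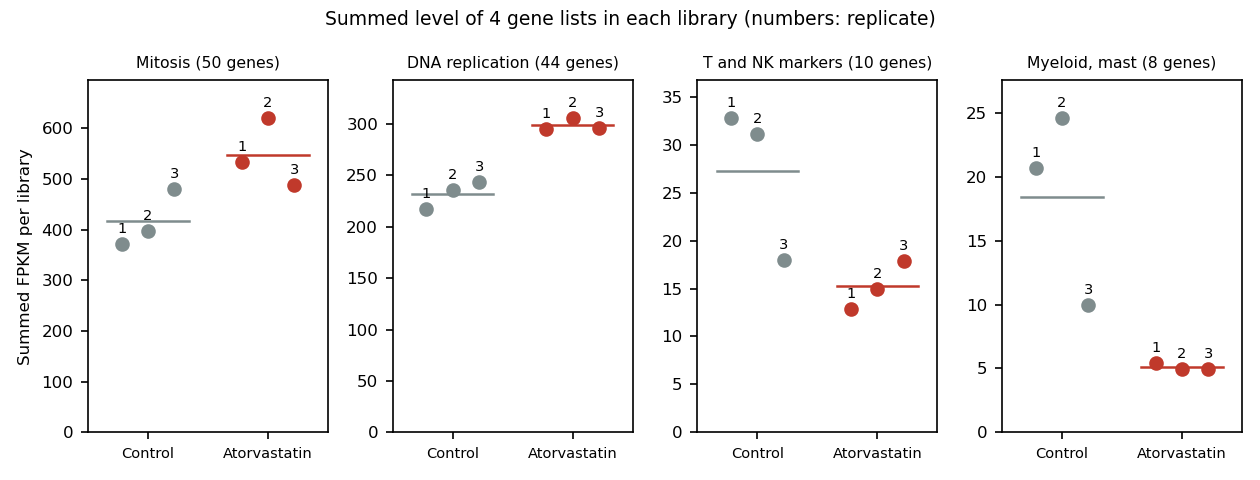
Summed FPKM (y axis, from 0) of the mitosis genes, the DNA replication genes, the T and NK cell markers and the myeloid and mast cell markers in each library, with the replicate number beside each point and the group mean as a line. Control replicate 3 is the control nearest to the atorvastatin libraries in each of the 4 panels.

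The libraries matched their epithelial label, and the sums of leukocyte markers were lower with atorvastatin. The 8 epithelial markers summed to 5940, 5780 and 5800 FPKM in the vehicle libraries and 5450, 5690 and 5650 FPKM in the atorvastatin libraries. Every atorvastatin sum was thus below every control sum. Of these 8 markers 1 was positive, against 57.3% of all tested genes, and none was called. The 8 fibroblast and endothelial markers summed to at most 1.18 FPKM. Levels of 10 T and NK cell markers summed to 32.8, 31.1 and 18.0 FPKM in the vehicle libraries and 12.9, 15.0 and 17.9 FPKM in the atorvastatin libraries, and all 7 that were tested were negative. For 8 myeloid and mast cell markers the sums were 20.7, 24.6 and 9.94 against 5.43, 4.94 and 4.93 FPKM, and for 7 B and plasma cell markers 10.6, 11.3 and 5.08 against 2.85, 3.32 and 2.55 FPKM. The mitochondrial ribosomal RNA mt-Rnr1 was at 2160, 2630 and 1830 against 1190, 1160 and 1530 FPKM, and mt-Rnr2 at 2050, 2540 and 2080 against 1560, 1290 and 1720 FPKM. Control replicate 3, the highest control in the mitosis sum, was the lowest control in the 3 leukocyte sums and in mt-Rnr1 but not in mt-Rnr2. The sums of 3 other epithelial lists overlapped between groups. Differentiated colonocyte markers summed to 5760, 6210 and 5050 against 5010, 5830 and 6470 FPKM, with 4 of 8 positive. Goblet markers summed to 1910, 2110 and 2020 against 2270, 2430 and 2080 FPKM, with 4 of 6 positive. Crypt base markers summed to 38.8, 35.6 and 42.3 against 45.7, 41.2 and 40.0 FPKM. Of the 7 crypt base markers tested none was called and 6 were positive. The groups did not overlap in 2 (28.6%, against 12.0% of all tested genes): Smoc2 (0.34 ± 0.09, adjusted p = 0.207) and the stem cell marker Lgr5 (0.31 ± 0.07, adjusted p = 0.142). Lgr5 was at 0.691, 0.627 and 0.706 FPKM in the vehicle libraries and 1.06, 1.16 and 1.02 FPKM in the atorvastatin libraries. It passed the filter only through the atorvastatin libraries, so its separation is not independent of the filter. The part of these differences in the mitosis values was not tested. None of the leukocyte sums was higher with atorvastatin.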

How the data were processed

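RNA-seq of colon epithelial cells was deposited as FPKM per Ensembl gene, 1 file per library. The unit was read from the deposited values, and totals were 407857 to 430832 FPKM. The mm10 build, Bowtie and FastQC 0.11.2 were named per the submitters' processing notes. The authors' quantification tool, annotation and strand setting are not given in the sources used here, and the depth is unknown. Log2(FPKM + 1) was compared over all 6 libraries with limma 3.58.1 in R 4.3.3 (trend and robust empirical Bayes, two-sided), for the 11644 genes that reached 1 FPKM in 3 libraries or more, with Benjamini-Hochberg adjustment over all of them. The log scale understates changes of low genes. A gene table named 99.72% of identifiers, and coordinates came from GENCODE M21 (GRCm38, which mm10 denotes). The members, lists and tests were chosen with earlier results of these data known. Named genes are 7 standard members, called genes, and per role the 2 smallest p and the lowest log2 fold change. Pseudocount, filter, scaling, limma settings, replicate block and each library left out were varied. The fit was tested on simulated data.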

Additional observations from a re-analysis of the deposited data

How the results depend on the processing

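The count of mitosis genes called higher, 1 with the reported settings, was 0 with no filter on low values and ran from 0 to 1 with a library left out (0 without control replicate 1, control replicate 2 or atorvastatin replicate 3). With replicate number as a block (replicate block) it was 0, and calls over all genes went from 47 to 1. The deviations of same-numbered control and atorvastatin libraries from their group means had correlations of -0.14, -0.11 and 0.01. With 3 libraries a group this cannot decide whether the numbers mark pairs. The count of members without overlap between groups, an alternative chosen after seeing the data, ran from 24 to 46 with a library left out: 46 without control replicate 3 and 41 without atorvastatin replicate 3. The number of positive members was 49 in each fit that tested all 50 and 33 of 34 with a filter of 5 FPKM. All 136 values of the role medians and all 834 of single members kept their sign under the alternatives. With the abundant and mitochondrial genes left out before scaling, 15 genes were called higher and 39 lower, against 18 and 29. Scaling moved the median of all genes by at most 0.02 on the log2 scale. FPKM values carry no read totals, so the precision of members near 1 to 3 FPKM, such as Cenph and Nuf2, is known only through the spread of 3 libraries a group. A total of 11 members, among them Foxm1, Bub3, Cdc20, Cdca8, Ncapg, Kif20a and Prc1, overlap another protein-coding gene by annotated span. Shared exons were not examined. A named copy exists for 5 members, and of these copies only Ccnb1-ps exceeded 1 FPKM (1.33 at most).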
